A study of Homo sapiens with 8 samples.

Results

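The forkhead genes other than FOXA were examined in HepG2 cells, a human hepatocarcinoma cell line, after inhibition of EZH1 and EZH2. They were chosen by symbol alone: a gene was a member when its symbol was FOX followed by a subfamily letter from B to S, a number and an optional suffix. FOXA1, FOXA2 and FOXA3 and antisense genes were left out. This gave 36 genes of 15 subfamilies among the 25603 genes of the expression table. Vehicle cultures (4 libraries) received 0.2% DMSO for 4 days, and EZHi cultures (4 libraries) received UNC1999 and valemetostat tosylate together, each at 1 µM, over the same time. Both groups grew on gelatin in the same serum-containing medium with insulin and dexamethasone. All libraries came from 1 cell line and both inhibitors were given together, so the effect of either alone cannot be told apart. The study describes the replicates as biologically independent. In bulk RNA a change in the share of cells of a type and a change in RNA per cell cannot be told apart.

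Forkhead proteins bind DNA through a winged-helix domain, and most recognise a short core sequence in the promoters and enhancers of their targets. The FOXA proteins are well-known factors of the liver, whereas the other subfamilies cover very different tasks: FOXO proteins carry out the fasting response of hepatocytes and are held in the cytoplasm when insulin signalling is active, FOXM1 drives mitotic genes in dividing cells, FOXJ1 builds motile cilia, and FOXC, FOXD and FOXF genes pattern mesenchyme and other tissues of the embryo. EZH1 and EZH2 are the catalytic subunits of polycomb repressive complex 2 (PRC2), which methylates histone H3 at silent genes, and promoters rich in CpG dinucleotides of developmental regulators are its classical targets.

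The upstream stretches of 3 genes that were higher in EZHi libraries and of FOXP1, the gene that was lower, are shown because they display how much these promoters differ in CpG content. Each is the 250 bases before the annotated start in RefSeq (GRCh38.p14), 5′ to 3′ on the strand of the gene, with every CG in capitals. The FOXD1 stretch lies at chr5:73448778-73449027 on the minus strand and holds 13 CG, and that of FOXN4 at chr12:109309285-109309534 on the minus strand holds 14. The FOXD2 stretch at chr1:47437794-47438043 on the plus strand holds 24 CG, and that of FOXP1 at chr3:71583729-71583978 on the minus strand holds 31. Not printed are the stretches of FOXF2, with 20 CG, and FOXO6, with 34, which were also higher in EZHi libraries. The higher genes thus lay on both sides of FOXP1.
FOXD1: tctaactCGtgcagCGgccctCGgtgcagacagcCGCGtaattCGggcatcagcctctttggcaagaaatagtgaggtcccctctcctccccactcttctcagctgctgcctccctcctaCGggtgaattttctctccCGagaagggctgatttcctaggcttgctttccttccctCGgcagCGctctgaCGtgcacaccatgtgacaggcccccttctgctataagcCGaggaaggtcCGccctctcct
FOXN4: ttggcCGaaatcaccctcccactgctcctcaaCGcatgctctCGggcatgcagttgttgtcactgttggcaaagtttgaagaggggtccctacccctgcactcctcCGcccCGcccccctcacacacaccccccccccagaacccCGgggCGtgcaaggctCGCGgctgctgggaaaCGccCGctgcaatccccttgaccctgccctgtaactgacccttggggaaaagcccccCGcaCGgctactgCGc
FOXD2: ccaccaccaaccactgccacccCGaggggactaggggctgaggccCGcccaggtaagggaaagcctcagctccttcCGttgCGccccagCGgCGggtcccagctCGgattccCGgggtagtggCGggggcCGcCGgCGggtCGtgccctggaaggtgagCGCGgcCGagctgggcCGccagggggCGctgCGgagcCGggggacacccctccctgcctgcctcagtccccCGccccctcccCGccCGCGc
FOXP1: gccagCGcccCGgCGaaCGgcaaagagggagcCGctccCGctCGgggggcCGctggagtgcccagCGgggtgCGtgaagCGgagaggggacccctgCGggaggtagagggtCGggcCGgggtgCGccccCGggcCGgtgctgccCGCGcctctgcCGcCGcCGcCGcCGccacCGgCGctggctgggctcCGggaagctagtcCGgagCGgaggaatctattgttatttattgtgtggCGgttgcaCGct

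Promoter windows of 300 bases (250 before to 50 after the start) were found in RefSeq for 28 of the 36 genes, and FOXC2, FOXF1, FOXH1, FOXJ1, FOXL1, FOXM1, FOXN2 and FOXS1 had no entry. The ratio of observed to expected CpG had a median of 0.824 over these 28 windows and of 0.580 over all 27305 promoters of the table. It was at least 0.6 in 22 of 28 windows (78.6%), against 49.0% of all promoters. Among the genes higher in EZHi libraries it was 0.632 for FOXD1, 0.574 for FOXN4, 0.730 for FOXD2, 0.957 for FOXF2 and 0.851 for FOXO6, and it was 0.988 for FOXP1. The median of these 5 higher genes was 0.730, and that of the 15 other tested genes with a window was 0.988, so the higher genes were not the most CpG-rich of the family. The forkhead core TGTTTAC, searched on both strands, occurred in 1 of 28 windows, that of FOXO4, and in 3.41% of all promoters.

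Expression values were deposited as length-corrected log2 values, and a level is given here also as an estimated FPKM. In vehicle libraries the levels of the 36 genes ran from abundant transcripts to values near the floor of the table. FOXN3, a repressor linked to the DNA damage checkpoint, had the highest estimated FPKM (158 ± 37.7, SD, n = 4), ahead of FOXK2 (96.4 ± 14.0), FOXQ1 (58.4 ± 9.0), FOXP4 (55.4 ± 3.05) and FOXM1 (51.5 ± 6.90). The 4 libraries of FOXQ1, FOXP4 and FOXM1 overlapped, so the order of these 3 is not fixed. FOXO1, FOXP1, FOXO4, FOXK1, FOXJ3, FOXO3 and FOXN2 followed at 18.9 to 10.5 and FOXJ2 at 9.18. FOXO3B (3.15) and FOXJ1 (2.86) came next. The remaining 21 genes were under 1, led by FOXD1 (0.83 ± 0.330) and FOXC1 (0.801 ± 0.398). Summed over all 36 genes, the estimated FPKM was 550 ± 47.7 in vehicle and 472 ± 36.7 in EZHi libraries, of which FOXN3 alone made up 28.5% ± 4.37 and 24.1% ± 3.61.

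**Figure D1:**
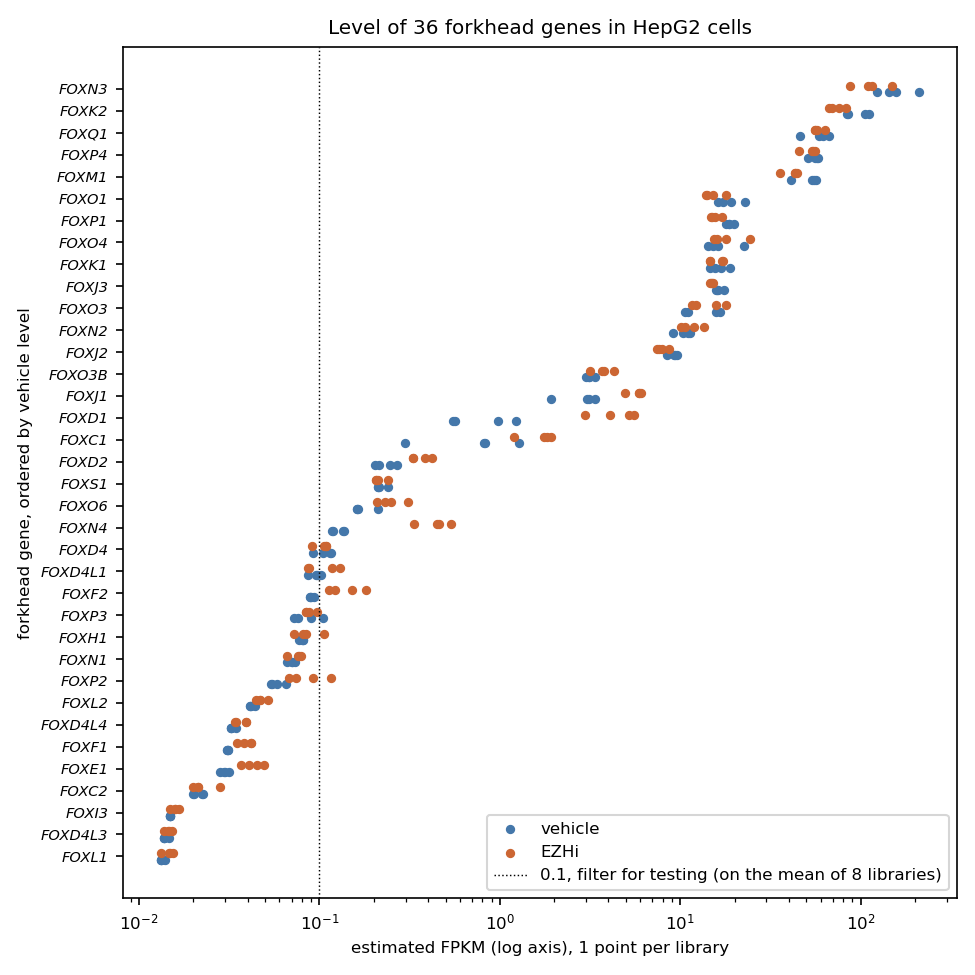
Estimated FPKM of the 36 forkhead genes in each library on a log axis, with vehicle in blue and EZHi in orange, ordered by the vehicle mean. FOXN3 stood at the top with a vehicle mean of 158, and 21 genes had a vehicle mean under 1.

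The comparison of EZHi with vehicle asks which of these regulators respond to loss of EZH1/2 activity. Genes whose estimated FPKM averaged 0.1 or more over the 8 libraries were tested with limma, and a gene is called when its p, adjusted over all 20153 genes tested, was under 0.05. Of the 36 forkhead genes, 24 were tested. FOXD1, FOXN4, FOXJ1, FOXD2, FOXF2 and FOXO6 were called higher in EZHi libraries (6 of 24, 25.0%), where 8.85% of all genes tested were called higher. FOXP1 was the only gene called lower (1 of 24, against 4.27% of all genes). All of the 6 higher genes but FOXJ1 had vehicle levels under 1 FPKM. FOXF2 had a vehicle mean below 0.1 and passed the level filter through its EZHi libraries, which by itself requires a difference, and it was called without the filter too.

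The calls were read by vehicle level, since they were unevenly spread over it in the whole table. Among genes with a vehicle level under 1 FPKM, 5 of 9 forkhead genes were called higher, against 15.6% of all such genes, and 0 of 9 were called lower, against 0.300% (0 also at an unadjusted p under 0.05). These 9 include FOXF2 and FOXD4L1, with vehicle means of 0.0899 and 0.0951 FPKM, which passed the filter only through their EZHi libraries. Fitted without a filter, 7 of 21 forkhead genes under 1 FPKM were called higher, against 1516 of 12791 genes. Between 1 and 10 FPKM, 1 of 3 was called higher (all genes 9.41%) and 0 of 3 lower (all genes 2.17%), with 1, FOXJ2, lower at an unadjusted p under 0.05. At 10 FPKM and over, 0 of 12 were called higher (all genes 2.12%), also at an unadjusted p under 0.05. In this class 1 of 12 was called lower (all genes 9.35%), with 5 lower at an unadjusted p under 0.05. The shares of all genes are at the adjusted threshold. None was counted at an unadjusted p, so the unadjusted counts here and below cannot be read as an excess. The median log2 fold change was 0.64 in the lowest class, where all genes had 0.07, and -0.10 in the highest class, where all genes also had -0.10. With quantile normalization the medians of the lowest class were 0.47 for the forkhead genes and -0.10 for all genes, and those of the highest class -0.04 and -0.02, so the order of the classes over all genes depended on the scaling. Over all 24 genes the median was 0.05, and over all genes tested it was -0.01. Sorting genes by the mean of the 8 libraries instead of the vehicle mean gave 4 of 7 higher in the lowest class, against 13.8% of all genes there, and 2 of 5 in the middle one, against 11.3%.

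The libraries of equal replicate number were taken as pairs, which the labels do not state. With the replicate number as a block the count of called genes rose in both directions. The paired fit called 7 forkhead genes higher (FOXC1 in addition to the 6 above), where it called 14.9% of all genes higher. It called 6 lower (FOXN3, FOXK2, FOXM1, FOXO1, FOXP1 and FOXJ2), where it called 15.1% of all genes lower. Every EZHi library was above every vehicle library for 5 of 24 genes (FOXD1, FOXN4, FOXJ1, FOXD2 and FOXF2), against 10.7% of all genes. Every EZHi library was below every vehicle library for FOXP1, FOXK2 and FOXJ3, 3 of 24, against 7.93% of all genes. Scaling moved the balance of the calls: centring the libraries on genes of at least 10 FPKM gave 7 genes higher and 0 lower, against 11.4% and 1.97% of all genes. Quantile normalization gave 5 and 0, against 6.96% and 3.89%, and the median of ratios 6 and 2, against 8.52% and 5.36%.

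**Figure D2:**
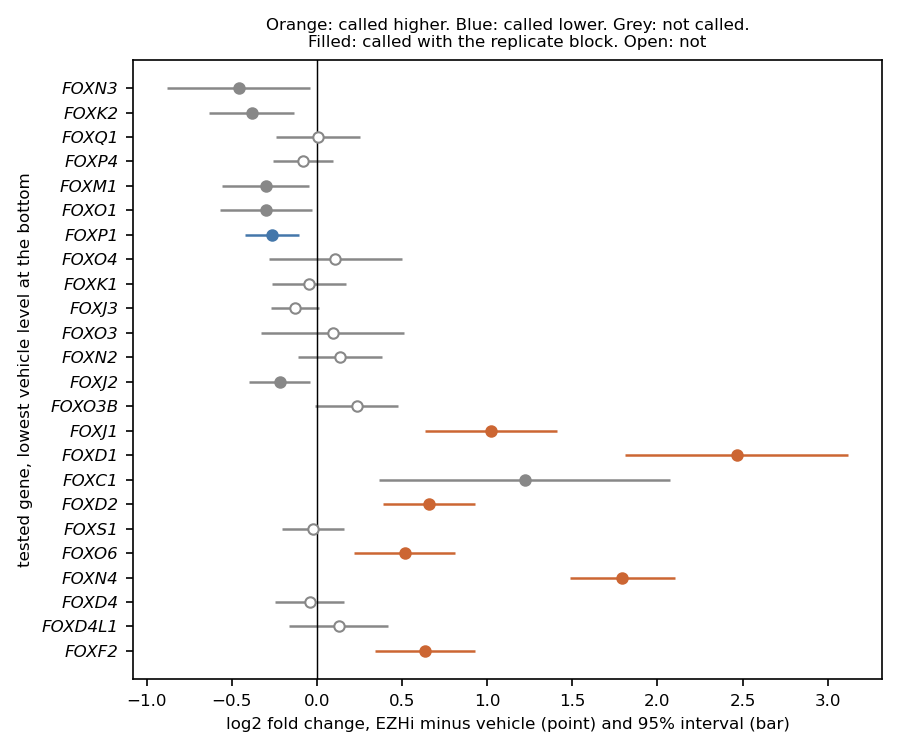
Log2 fold change (EZHi minus vehicle) of the 24 tested forkhead genes with its 95% interval, from the highest vehicle level at the top to the lowest at the bottom. Orange genes were called higher and the blue gene lower, and filled points mark the 13 genes called with the replicate block, among them FOXN3, FOXK2, FOXM1, FOXO1, FOXJ2 and FOXC1 in grey.

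**Figure D3:**
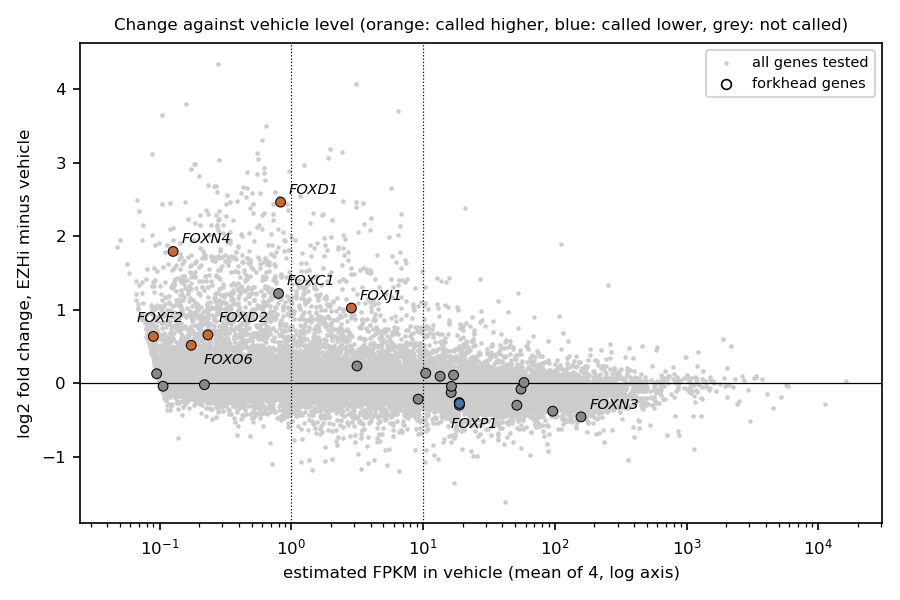
Log2 fold change against the vehicle level (log axis) for all 20153 genes tested in grey and the 24 forkhead genes as outlined points. The 6 forkhead genes called higher lie below 10 FPKM, and the 12 at 10 FPKM and over, right of the dotted line at 10, lie between -0.46 and 0.13.

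FOXD1, which marks stromal progenitors of the developing kidney, had the largest change of the family. Its log2 values were 3.82, 4.97, 3.85 and 4.64 in vehicle libraries 1 to 4 and 6.24, 7.16, 6.70 and 7.05 in EZHi libraries 1 to 4. Libraries 1 and 3 were low in vehicle and library 1 was the lowest in EZHi, yet the lowest EZHi value lay above the highest vehicle value. The log2 fold change was 2.47 (SE 0.29, limma adjusted p = 0.000426), and the estimated FPKM went from 0.83 ± 0.330 to 4.44 ± 1.18 (SD, n = 4). Each of the 4 pairs rose, by 2.18 to 2.85.

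FOXN4, known for specifying interneurons of the retina and spinal cord, had the smallest p of the family. Its vehicle values were 1.79, 1.58, 1.81 and 1.60, and its EZHi values 3.53, 3.10, 3.55 and 3.78. The vehicle libraries lay close together and far below all EZHi libraries. The log2 fold change was 1.79 (SE 0.14, limma adjusted p = 3.12e-05), from an estimated FPKM of 0.127 ± 0.0110 to 0.445 ± 0.0833. The fold of this and other low genes may be understated, because the regularized log used to make the values draws genes with few reads towards their mean. The size of this effect was not estimated.

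FOXD2, a close relative of FOXD1, also rose. It measured 2.66, 2.78, 2.37 and 2.45 in vehicle and 3.43, 3.30, 3.08 and 3.09 in EZHi libraries, so the groups did not overlap. The log2 fold change was 0.66 (SE 0.12, limma adjusted p = 0.00579). The log2 ratio of FOXD1 to FOXD2 within a library was 1.75 ± 0.52 in vehicle and 3.56 ± 0.52 in EZHi libraries, a difference of 1.81 (SE 0.37) that was positive in 4 of 4 pairs. An exact two-sided permutation test over 70 assignments gave p = 0.0286, the smallest it can give, and 0.10 after adjustment over the 7 paralog pairs compared. The antisense neighbour FOXD2-AS1, which starts 3403 bases from FOXD2, had a log2 fold change of -0.07 (limma adjusted p = 0.887).

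FOXF2 and FOXC1 lie near each other on chromosome 6, in a group that also holds FOXQ1. FOXF2, a factor of gut and palate mesenchyme, measured 1.18, 1.26, 1.19 and 1.17 in vehicle and 1.95, 2.22, 1.65 and 1.53 in EZHi libraries. Its groups did not overlap, and the change was 0.64 (SE 0.13, limma adjusted p = 0.0110), though the vehicle level of 0.0899 FPKM was at the edge of what was tested. FOXC1, needed for development of the eye and of mesenchyme, measured 4.40, 5.02, 2.92 and 4.38 in vehicle and 5.49, 5.63, 4.95 and 5.55 in EZHi libraries. Vehicle library 3 was far below the other vehicle libraries and EZHi library 3 was the lowest of its group and under vehicle library 2, so the groups overlapped. EZHi was higher in all 4 pairs, by 0.60 to 2.02. FOXC1 was not called without the block (1.22, SE 0.38, limma adjusted p = 0.0663) and was called with it (adjusted p = 0.00196). Without vehicle library 2 the adjusted p was 0.0276, without vehicle library 3 it was also under 0.05, and without both libraries numbered 3 the change was 0.95 (adjusted p = 0.0144). FOXQ1 from the same stretch of chromosome 6, an epithelial factor that was already at 58.4 FPKM, had a change of 0.01 (SE 0.11, 95% interval -0.24 to 0.25).

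FOXJ1, the master regulator of motile cilia, went from 6.32, 6.28, 5.62 and 6.43 in vehicle to 7.25, 7.27, 6.98 and 7.24 in EZHi libraries. Library 3 was the lowest of both groups, and the groups were nevertheless separate. The change was 1.02 (SE 0.17, limma adjusted p = 0.00361), from an estimated FPKM of 2.86 ± 0.644 to 5.70 ± 0.519. The antisense gene RNF157-AS1 overlaps FOXJ1 and was called higher too (0.44, limma adjusted p = 0.0121). Reads were counted without strand, and the exons of both share 9 of the 2587 exonic bases of FOXJ1 in GENCODE. Whether reads of either gene were counted for the other was not tested. RNF157-AS1 was the only one called among 6 tested genes that overlapped or started within 50 kb of a called forkhead gene.

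Genes of the motile cilium were mostly near the floor. Of 25 such genes listed, 19 were in the table and 11 were tested, 2 were called higher and 0 lower (0 also lower at an unadjusted p under 0.05), and 10 of 11 changes were positive with a median of 0.26. Among all genes under 1 FPKM in vehicle, 15.6% were called higher, 67.1% of changes were positive and the median was 0.07. The share called, 2 of 11, was near that of such genes. TPPP3, a tubulin-binding protein, rose from 0.735 FPKM with a log2 fold change of 1.73 (limma adjusted p = 0.000299), and DNAH5, an axonemal dynein, with one of 0.72 (adjusted p = 0.00247). With the block 4 of 11 were called higher, adding TEKT2 and RSPH4A, where 1559 of 7341 genes under 1 FPKM were. Of 4 tested regulators of ciliogenesis other than FOXJ1, 1 was called higher, MYB (0.89, limma adjusted p = 0.00633), against 8.85% of all genes. DNAH9, DNAI1, HYDIN and SPAG17, parts of the axoneme, were in the table but under the level filter.

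**Figure D4:**
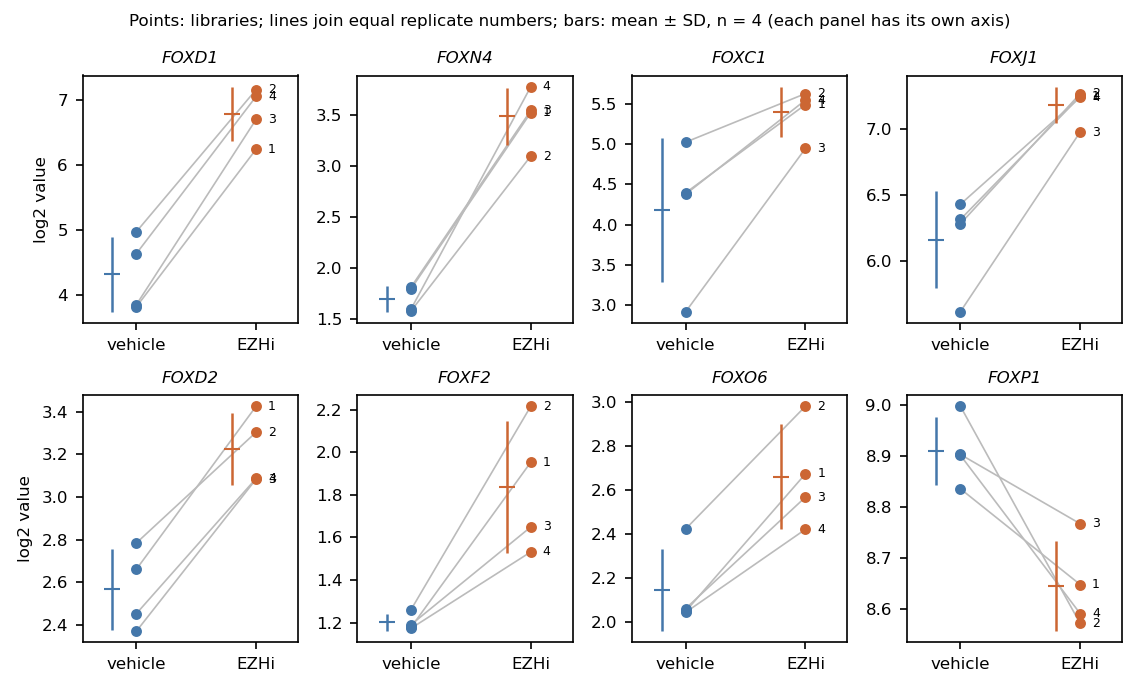
Log2 values in each library for the 7 called genes and FOXC1, with grey lines joining equal replicate numbers and bars giving the mean and SD of 4 libraries. All lines rise in the first 7 panels and fall in the FOXP1 panel, and each panel has its own axis.

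FOXO proteins are regulated mainly by phosphorylation downstream of insulin, and at the RNA level the 5 genes of the subfamily differed from each other. FOXO6, a FOXO gene of the brain, measured 2.05, 2.42, 2.06 and 2.05 in vehicle and 2.67, 2.98, 2.57 and 2.42 in EZHi libraries. Vehicle library 2 stood above the other vehicle libraries and its value met that of EZHi library 4, so the groups overlapped, though each pair rose. The call rested on the spread of few libraries: the change was 0.52 (SE 0.13, limma adjusted p = 0.0306), it was called in 3 of 8 fits without 1 library, and with quantile normalization the adjusted p was 0.128. FOXO1, the main FOXO of hepatocytes, measured 8.70, 8.79, 9.19 and 8.93 in vehicle and 8.59, 8.48, 8.85 and 8.49 in EZHi libraries. Library 3 was the highest of both groups, the groups overlapped, and EZHi was lower in all 4 pairs, by 0.11 to 0.45. The change of -0.30 (SE 0.12) had a limma adjusted p of 0.144, and of 0.00745 with the block. FOXO3 (0.09, 95% interval -0.33 to 0.51) and FOXO4 (0.11, 95% interval -0.28 to 0.50) were not called in either fit. FOXO3B (0.23, limma adjusted p = 0.207) is a near-copy of FOXO3. The methods set a minimum alignment quality for counting, so reads that fit both genes may be missing from both.

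Calls among the genes around FOXO went in both directions. Of 22 tested regulators of FOXO proteins 1 was called higher and 0 lower (4 lower at an unadjusted p under 0.05), the higher one being PIK3R1, a regulatory subunit of phosphoinositide kinase (0.31, limma adjusted p = 0.0408). With the block 3 were higher and 8 of 22 lower, a share near the 33.2% of all genes at 10 FPKM and over that this fit called lower. Of 22 tested FOXO targets 2 were called higher and 2 lower, with a median of 0.13. Over all genes tested, this fit without the block called 8.85% higher and 4.27% lower. SESN3, a sestrin that restrains TOR signalling, rose from 5.89, 5.97, 6.13 and 5.88 to 8.25, 8.61, 8.30 and 8.65 (2.49, SE 0.12, limma adjusted p = 3.59e-06). PDK4, an inhibitor of pyruvate oxidation in fasting, also rose (0.96, adjusted p = 0.000493), whereas the cell cycle inhibitor CDKN1B (-0.31, adjusted p = 0.00741) and the mitochondrial superoxide dismutase SOD2 (-0.29, adjusted p = 0.0451) were lower. Neither of these lower calls was made with quantile normalization. With the block the count was 10 higher and 5 lower of 22, against 14.9% and 15.1% of all genes, and the gluconeogenic genes PCK1 (1.08, limma block adjusted p = 0.000166) and G6PC1 (0.75, adjusted p = 0.0076) were among the higher.

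FOXP1, a repressor of the FOXP subfamily, measured 8.84, 9.0, 8.90 and 8.90 in vehicle and 8.65, 8.57, 8.77 and 8.59 in EZHi libraries. The groups were separate, with EZHi library 3 the closest to vehicle. The change of -0.26 (SE 0.07, limma adjusted p = 0.0347) was small, corresponding to an estimated FPKM of 18.8 ± 0.874 against 15.7 ± 0.974. It was called in 1 of 8 fits without 1 library, the one without EZHi library 3, and the adjusted p was 0.0956 with quantile normalization, 0.131 with centring on genes of at least 10 FPKM and 0.0508 with that centring and the block. FOXP4 was at -0.08 (95% interval -0.26 to 0.10). The log2 ratio of FOXP1 to FOXP4 within a library changed by -0.18 (SE 0.09, exact permutation p = 0.0857, adjusted 0.120).

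FOXM1, the driver of mitotic genes, measured 10.46, 10.49, 10.05 and 10.42 in vehicle and 10.11, 10.15, 9.83 and 10.12 in EZHi libraries. Library 3 was the lowest of both groups and vehicle library 3 fell into the EZHi range, and EZHi was lower in each of the 4 pairs, by 0.22 to 0.35. The change of -0.30 (SE 0.11) had a limma adjusted p of 0.118, of 0.0180 without vehicle library 3, of 0.0105 without both libraries numbered 3, and of 0.00120 with the block. RHNO1, which overlaps FOXM1 on the opposite strand, was called lower (-0.36, limma adjusted p = 0.0203), and their exons share 0 bases. ITFG2, also on the opposite strand, shares 782 of the 4919 exonic bases of FOXM1 and changed by 0.21 (limma adjusted p = 0.242).

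Known FOXM1 targets, genes of mitosis, are all above 10 FPKM in vehicle libraries, where calls over all genes were mostly lower. Of 22 tested mitotic target genes 0 were called higher (0 also at an unadjusted p under 0.05) and 4 lower, with 3 positive changes and a median of -0.14, while the median of all genes at 10 FPKM and over was -0.10. The lower ones were CCNA2 (-0.36, limma adjusted p = 0.0270), the kinase AURKA (-0.32, adjusted p = 0.00451), the phosphatase CDC25B (-0.29, adjusted p = 0.0106) and the checkpoint kinase BUB1 (-0.29, adjusted p = 0.0422). The share called lower was thus 4 of 22 against 9.35% of all genes at 10 FPKM and over. The block gave 10 of 22 lower, against 33.2% of all genes at that level, and 0 higher, against 7.21%, and quantile normalization left 1, AURKA.

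FOXN3 and FOXK2, the commonest transcripts of the 36 genes, were lower in every pair. FOXN3 measured 11.84, 11.61, 12.40 and 11.97 in vehicle and 11.45, 11.12, 11.89 and 11.52 in EZHi libraries. The libraries of a group were further apart than the groups, and EZHi was lower in each pair by 0.39 to 0.51. Its change of -0.46 (SE 0.19) had a limma adjusted p of 0.149, and of 8.61e-05 with the block. The antisense gene FOXN3-AS1 within FOXN3 was called lower (-0.37, limma adjusted p = 0.0423), and their exons share 0 bases. It was called in 0 of 8 fits without 1 library, and with centring the limma adjusted p was 0.0957. Its vehicle level was 1.65 FPKM against 158 for FOXN3, and reads were counted without strand. Whether reads of FOXN3 were counted for it was not tested. FOXN2, the paralog of FOXN3, was at 0.13 (95% interval -0.11 to 0.38).

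FOXK2, which with FOXK1 represses autophagy genes, measured 11.09, 11.07, 11.48 and 11.39 in vehicle and 10.73, 10.79, 11.05 and 10.93 in EZHi libraries. The lowest vehicle library was just above the highest EZHi library, so the groups did not overlap. Its change of -0.38 (SE 0.11) had a limma adjusted p of 0.0517, of 0.0400 with the median of ratios and of 0.000397 with the block. WDR45B, a gene at a similar level that overlaps FOXK2 on the opposite strand, changed by -0.33 (limma adjusted p = 0.115, with the block 0.000657), and their exons share 53 bases. FOXK1 was at -0.04 (95% interval -0.26 to 0.17). The log2 ratio of FOXK1 to FOXK2 was -2.55 ± 0.09 in vehicle and -2.21 ± 0.05 in EZHi libraries, a difference of 0.34 (SE 0.05) in the same direction in 4 of 4 pairs, with an exact permutation p of 0.0286 and an adjusted p of 0.10. No ratio of the 7 pairs passed the threshold after adjustment. A pair alone could not pass it, since the smallest p of this test is 0.0286 before adjustment over 7 pairs. The test thus cannot decide on a ratio taken alone, and it did not use the replicate numbers. The other differences were 0.59 for FOXN2 to FOXN3, -0.39 for FOXO1 to FOXO3, -0.09 for FOXJ2 to FOXJ3 and -0.02 for FOXO3 to FOXO4.

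**Figure D5:**
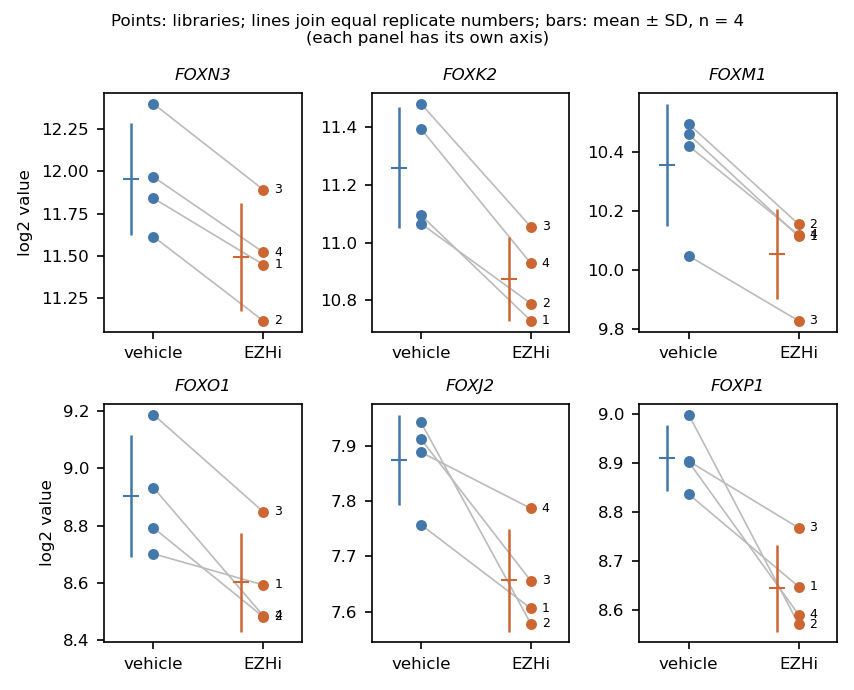
Log2 values in each library of the 6 forkhead genes called lower with the replicate block, with grey lines joining equal replicate numbers and bars giving the mean and SD of 4 libraries. Every line falls, by 0.10 to 0.51, while the vehicle and EZHi points overlap for FOXN3, FOXM1, FOXO1 and FOXJ2.

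The other tested genes had small differences. FOXJ2 had a change of -0.22 (limma adjusted p = 0.109, with the block 0.0382) and FOXJ3 one of -0.13 (adjusted p = 0.236), although the groups of FOXJ3 did not overlap. FOXS1 was at -0.02, FOXD4 at -0.04 and FOXD4L1 at 0.13, all near the lowest level tested. The FOXD4 genes are near-identical copies, and reads that fit several of them may be missing from the counts. The sign of the change depended on the scaling for FOXQ1, FOXP4, FOXK1, FOXS1 and FOXD4, none of which was called.

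The 12 forkhead genes under the level filter were FOXC2, FOXD4L3, FOXD4L4, FOXE1, FOXF1, FOXH1, FOXI3, FOXL1, FOXL2, FOXN1, FOXP2 and FOXP3, among them regulators of the thyroid (FOXE1), the ovary (FOXL2), the thymus (FOXN1) and regulatory T cells (FOXP3). Their log2 values lay between -1.56 and 1.58, and their mean estimated FPKM reached 0.0870 at most, while the lowest tested gene, FOXD4L1, had 0.10. All 12 differences were positive, from 0.05 to 0.57. Fitted without the filter, 66.9% of the changes of all genes under 1 FPKM in vehicle were positive. That class also holds genes above the filter, and no share was counted for genes under it alone. Fitted without the filter, 8 of 36 forkhead genes were called higher, against 8.28% of all genes, and 1 of 36 lower, against 3.15%. The added ones were FOXE1 and FOXF1. FOXE1 measured -0.39, -0.39, -0.47 and -0.31 in vehicle and 0.34, 0.21, -0.09 and 0.06 in EZHi libraries (0.52, limma adjusted p = 0.00592). FOXF1, a mesenchymal factor of the lung, varied by less than 0.02 among vehicle libraries and measured 0.10, 0.10, -0.16 and -0.03 in EZHi libraries (0.34, limma adjusted p = 0.00672). Both groups of FOXE1 were separate, as were those of FOXF1, but at this height a value reflects very few reads. FOXP2 differed by 0.57 (limma adjusted p = 0.0561).

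The study took transcription factor genes that rose in mouse hepatocytes turning into cholangiocytes and sorted their promoters in healthy liver into clusters C1, C2 and C3 by chromatin accessibility and histone marks, and 12 of the 36 genes carry a symbol found in the lists available here. Of the 7 in C1 (FOXP4, FOXP1, FOXJ2, FOXM1, FOXQ1, FOXJ3 and FOXK1) all were tested, 0 were called higher (0 also at an unadjusted p under 0.05) and 1 lower (3 at an unadjusted p under 0.05, and 3 with the block). Their vehicle levels were 9.18 to 58.4 FPKM. At 10 FPKM and over, 2.12% of all genes were called higher, 9.35% lower and 33.2% lower with the block. In C2, FOXO6 was called higher and FOXS1 was not. In C3, FOXJ1 was called higher, FOXC1 was called with the block alone and FOXC2 was under the level filter. Of all genes, 15.6% of those under 1 FPKM and 9.41% of those from 1 to 10 FPKM were called higher. Whether the cluster or the level goes with these calls was not tested. In HepG2 cells given these inhibitors, the study reported derepression of C2 and C3 genes by RNA-seq. FOXD1, FOXN4, FOXD2 and FOXF2 were in none of the cluster lists, which says nothing of the marks at their promoters, since a gene outside the starting set was not sorted.

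FOXA genes, the liver members of the family, were at 25.1 to 103 FPKM in vehicle libraries. FOXA1 was called lower (-0.25, limma adjusted p = 0.0125, but 0.125 with quantile normalization), a change close in size to that of FOXP1. FOXA2 (0.23, adjusted p = 0.224, with the block 0.0143) and FOXA3 (-0.15, adjusted p = 0.340) were not.

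Facts of the whole table that touch these results were as follows. Correlations between libraries across genes were 0.992 to 0.997 within groups and 0.986 to 0.993 between groups. The hepatocyte markers were all present, with a summed estimated FPKM of 28688 to 53074 in vehicle and 31078 to 47805 in EZHi libraries, and 1 of 11, FGB, was called (higher). None of the 4 PRC2 genes tested was called (0 also at an unadjusted p under 0.05), which is no check of the inhibition, since the drugs act on the enzymes. The study checked the inhibition by immunoblotting and reported less of the histone mark of PRC2 in treated HepG2 cells. Of 5 endothelial markers 4 were in the table and 3 tested, and CDH5 (2.28) and VWF (1.45) were called higher, with a summed level of 2.26 to 2.73 FPKM in vehicle and 3.43 to 7.22 in EZHi libraries while KDR was not matched and TEK was near the floor. Of 8 fibroblast markers 4 were in the table and 3 tested, PDGFRA was called higher (0.92), the sum was 12.4 to 15.2 and 15.1 to 17.6 FPKM, COL3A1 was near the floor and COL1A2, DCN, LUM and THY1 were not matched. Of 5 leukocyte markers 2 were tested and 0 were called, and of 5 cholangiocyte markers 4 were tested and 0 were called (each 0 also at an unadjusted p under 0.05). For these marker counts, 15.6% of all genes tested under 1 FPKM in vehicle were called higher. The share was 9.41% from 1 to 10 FPKM and 2.12% at 10 FPKM and over. Whether the endothelial and fibroblast markers have a part in the higher forkhead genes was not tested.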

How the data were processed

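RNA from 4 vehicle and 4 EZHi cultures of HepG2 cells was sequenced as paired reads of 150 bp. According to the methods, the authors mapped reads to hg38 with HISAT2, counted them over exons with HTSeq in union mode without strand, which leaves out reads on exons shared by genes, dropped genes with few reads and deposited regularized log values of DESeq2 corrected for transcript length. The authors' processing notes in the labels give HISAT2 2.2.1, HTSeq 0.9.1 and DESeq2 1.40.2, and the methods name other versions of the aligner and of the normalization package. The deposited values are log2 although the table is named FPKM. They run from -6.81 to 19.01, and the lowest values change by -0.92 per doubling of length. The regularized log shrinks differences of genes with few reads. Read depth is unknown, so no counting interval is given. Estimated FPKM is 2 to the power of the value, divided by 25.6, the mean library sum in units of 1e6 normalized reads (24.4 to 27.3).

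The 20153 of 25603 genes whose estimated FPKM averaged 0.1 or more were fitted with limma 3.58.1 in R 4.3.3. The test of the group term was two-sided, eBayes used a mean-variance trend, p was adjusted by Benjamini-Hochberg over all genes tested, and adjusted p under 0.05 is called. Count models were not run because the values are not counts, and the planned transformation with a pseudocount was kept as an alternative (0.1 and 1). Other alternatives were other scalings, level filters, no trend, the replicate block and leaving out libraries. Replicate numbers come from the titles. Deviations from the group means correlated at 0.31, 0.56, 0.63 and 0.22 between libraries of equal number, and at -0.58 to 0.20 between libraries of unequal number. The labels state no pairing, and the numbers were taken to pair the libraries from these values. Ratios of paralogs used exact permutation tests. Named are all forkhead genes, the called genes of related lists with the largest changes (at most 4 per direction and list) and neighbours within 50 kb of called genes. Genes named for the block alone, the overlapping neighbours of FOXM1, FOXN3 and FOXK2, and genes under a filter were chosen after their values were seen. The forkhead genes and lists were chosen with earlier results of these data known. Coordinates come from GENCODE 44 and RefSeq (GRCh38.p14). Tables were handled in pandas 2.3.3 and numpy 2.4.6 under Python 3.11.15, and plots drawn with matplotlib 3.10.9.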

Additional observations from a re-analysis of the deposited data

Results flagged for a closer look

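In 6 of 48 groups of 4 values (24 tested genes, 2 groups each) 1 library stood apart by Dixon's test, where its gap to the nearest library is divided by the range of the group. Chance gives about 1 in 20 such groups, here 2.4. FOXM1 was low in replicate 3 of both groups, at 10.05 against 10.42 to 10.49 in vehicle (ratio 0.834) and at 9.83 against 10.11 to 10.15 in EZHi libraries (ratio 0.874). FOXJ1 was low in EZHi library 3, at 6.98 against 7.24 to 7.27 (ratio 0.907). FOXO6 was high in vehicle library 2, at 2.42 against 2.05 to 2.06 (ratio 0.955), and FOXS1 in the same library, at 2.62 against 2.43 to 2.46 (ratio 0.843). FOXD4 was low in EZHi library 1, at 1.21 against 1.44 to 1.47 (ratio 0.869).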

How the results depend on the processing

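The count of 6 forkhead genes called higher became 2 of 17 tested with a filter at 1 FPKM (all genes 6.0%) and 10 of 24 with the replicate block and centring together (all genes 20.4%), and lay between 5 and 7 without 1 library each. The count of 1 called lower became 0 with centring on genes of at least 10 FPKM, 0 with quantile normalization, 2 with the median of ratios, 6 with the replicate block, 4 with the block and centring (all genes 8.32%), 2 without both libraries numbered 3, and 0 to 2 without 1 library each. At an unadjusted p under 0.05 limma gave 6 lower genes, and the share of all genes at that p was not counted. The median log2 fold change of 0.05 became 0.13 with centring (with and without the block), -0.0442 with the filter at 1 FPKM, 0.0307 with the median of ratios, 0.0932 without a filter, 0.0104 with a pseudocount of 1, 0.0704 with quantile normalization, and -0.0167 to 0.0910 without 1 library each. The last was negative without EZHi library 3. The cause was not tested.

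Over 449 refits of single genes, 406 kept direction and side of the threshold, 24 became called, 17 lost the call, and 2 moved. FOXO6 was called without EZHi library 3, EZHi library 4 or vehicle library 2 and not without any other. FOXP1 was called only without EZHi library 3 among these fits, FOXC1 without vehicle library 2 or 3, FOXK2 without EZHi library 3 or vehicle library 2, and FOXM1 without vehicle library 3. The block changed no call of a forkhead gene other than those named in the report. Leaving out 1 library in turn moved the ratio difference of FOXD1 to FOXD2 to between 1.61 and 2.06 and that of FOXK1 to FOXK2 to between 0.30 and 0.38, and no adjusted exact permutation p of the 7 ratios fell under 0.0667. The sign of the FOXO3 to FOXO4 difference turned within these (-0.07 to 0.09). These fits and those with both libraries numbered 3 left out and with block and centring together were chosen after seeing the data. Genes near the floor are limited by their few reads.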
